A study of Gallus gallus with 23 samples.

Results

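Genes of the cell cycle and of DNA replication were followed in chicken liver after 6 days of treatment with corticosterone, with the thyroid hormone T3, or with both. The genes were all those whose symbol in the array's annotation began with CCN and a letter, CDC and a digit, or CDK, MCM, ORC, CENP, KIF, AURK, PLK, BUB, RFC, POLA, POLD or POLE. They numbered 83 genes on 126 spots, of 6428 named genes on 10601 named spots. Symbols, not expression values, chose them, and the prefixes also took in genes with other tasks, such as CDC42 and KIF1BP, a protein that binds kinesin motors. A test asked for 3 or more values in each of the 4 groups, which 54 of the 83 genes had. The other 29 were not tested, and 6 of these had no value on any array (BUB1B, CDC42SE2, CDKN1A, CDKN1B, POLDIP3 and RFC1). CCNA2, CCNB1, BUB1, KIF20A, ORC1 and ORC4 had too few values and were also not tested. Aurora kinases and PLK1 were not among the 83.

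Before replication, origin recognition proteins (ORC) mark where it can begin and the MCM helicase is loaded there. Cyclins then activate cyclin-dependent kinases, the helicase unwinds the DNA, and replication factor C (RFC) loads the sliding clamp for the polymerases. In mitosis, centromere proteins (CENP), kinesins, checkpoint proteins and Polo-like kinases attach and separate the chromosomes. Most hepatocytes of a grown liver are quiescent. Thyroid hormone is known in rodents to drive hepatocytes into division, and glucocorticoids are known to restrain growth in young birds.

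All birds were Ross x Cobb broiler cockerels, 4 weeks old, fitted at 29 days of age with a subcutaneous pump that released 1.0 microlitre per hour. The VC group (6 birds) received the vehicle of DMSO and propylene glycol, and the CS group (6 birds) received corticosterone at 600 micrograms/kg/day. The T3 group (6 birds) received L-triiodothyronine at 192 micrograms/kg/day, and the CS+T3 group (5 birds) received both hormones at these doses. Liver RNA of each bird, labelled with an Alexa Fluor dye, was hybridised against a common pool of liver RNA from 6 control birds labelled with another. Each value is a log2 ratio, on which 0 stands for the level of the pool and 1 for 2 times that level. The numerator is not stated in the sources used here: bird over pool is likely, because the labels name the bird first and the pool second, and the opposite reading would turn every sign below. All samples were whole liver, in which fewer cells of a type and less RNA per cell cannot be told apart.

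The values of 6 of the 23 arrays sat against the wrong spots over all or part of the array and were moved back before any test. These were CS replicate 3, T3 replicates 1 and 3, CS+T3 replicates 1 and 2, and VC replicate 4. Arrays held between 28.5 and 53.5% blank spots, and the median residual spread (SD) of a feature between birds of a group was 0.22. Of 14 hepatocyte markers 12 were measured, among them ALB and TTR, and their mean log2 ratio per bird was -0.02 to 0.08 in VC, -1.08 to -0.33 in CS, -0.40 to 0.46 in T3 and -0.42 to -0.02 in CS+T3. The mean of the 10 measured leukocyte markers (of 18) was -0.11 to 0.13 in VC, -0.28 to 0.09 in CS, -0.01 to 0.36 in T3 and -0.20 to 0.03 in CS+T3. The mean of the 5 measured erythrocyte markers (of 18) was -0.08 to 0.15 in VC, 0.02 to 0.37 in CS, -0.18 to 0.34 in T3 and -0.05 to 0.08 in CS+T3. A ratio to a pool gives no absolute level, so no marker could be called absent.

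The cell cycle genes as a set lay close to the pool in every group. Their mean log2 ratio per bird was -0.05 to 0.03 in VC, -0.03 to 0.12 in CS, -0.10 to -0.001 in T3 and -0.08 to 0.0004 in CS+T3. Birds given CS reached the highest means, and CS replicate 5 was the lowest of them. The group means of single genes spread more widely, from -0.90 for MCM4 in T3 to 0.67 for PLK2 in CS.

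**Figure D1:**
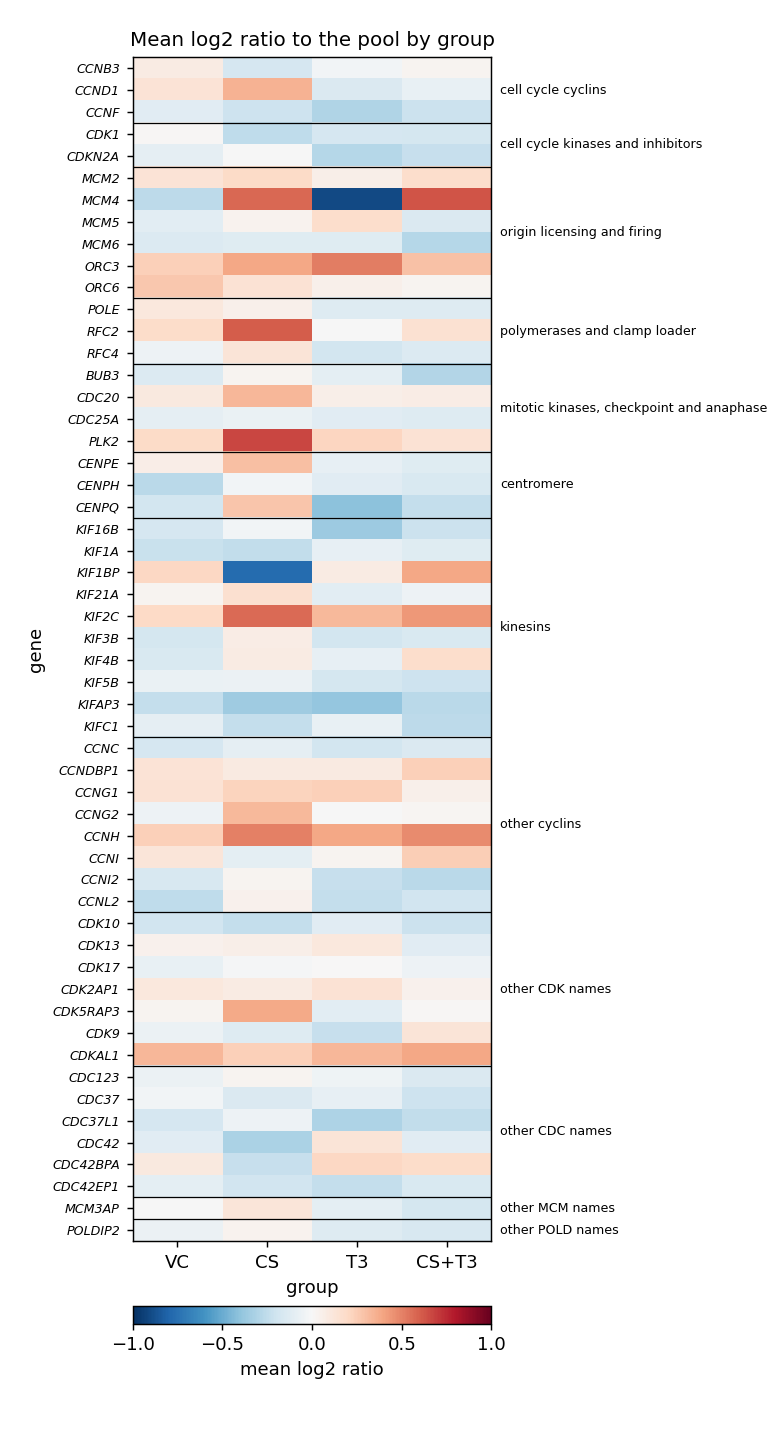
Mean log2 ratio to the pool of each of the 54 tested genes (rows, ordered by role) in each group (columns: 6 VC, 6 CS, 6 T3 and 5 CS+T3 birds). KIF1BP stood at -0.77 in CS and 0.38 in CS+T3, and MCM4 at -0.90 in T3 against 0.57 in CS.

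Corticosterone was first compared with the vehicle. Of the 54 genes, 1 passed the test (limma across 9251 features, Benjamini-Hochberg adjusted p under 0.05), which is 1.85% of them, and 4.08% of all features passed it. The gene was KIF1BP, which fell, as did 3.09% of all features. The median difference of the 54 genes was 0.08 on the log2 scale, against 0.03 over all features, and 35 of the 54 differences were above 0, as were 56.8% over all features. At an unadjusted p under 0.05 there were 10 genes (18.5%), against 19.6% of all features. Leaving out single birds gave 2 genes without VC replicate 5 or T3 replicate 1, where 2.97 and 4.83% of all features passed. It gave 3 without CS replicate 5, where 6.67% did.

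KIF1BP encodes a partner of kinesin motors that is needed for the transport of mitochondria and for the growth of nerve fibres, and it is no motor itself. Its log2 ratios were -0.12 at the lowest, 0.21 at the median and 0.54 at the highest of the 6 VC birds, and -0.97, -0.88 and -0.31 in the 6 CS birds. Every CS bird lay below every VC bird. The T3 birds had 0.27, 0.13, -0.12, -0.52 and 0.67, with no value for replicate 3, and the CS+T3 birds had 0.73, -0.03, 0.52, 0.10 and 0.61. Both groups overlapped VC, and every CS+T3 bird lay above every CS bird.

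The mean of KIF1BP was -0.77 ± 0.25 in CS (SD, n = 6) and 0.21 ± 0.23 in VC (n = 6), a difference of -0.98 (SE 0.17, limma adjusted p = 0.00229). It fell against T3 too, by 0.86 (SE 0.18, adjusted p = 0.00666). With both hormones it was 1.16 higher than with CS alone (SE 0.18, adjusted p = 0.00194). The difference between CS+T3 and VC was 0.18 (95% interval -0.20 to 0.56). The interaction, that is the effect of T3 in birds given CS minus its effect in birds given vehicle, was 1.28 (SE 0.26, adjusted p = 0.0536) and did not pass. It passed when VC replicate 6, CS replicate 5, T3 replicate 6 or CS+T3 replicate 2 was left out (adjusted p 0.0175 to 0.0439).

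The call of KIF1BP against VC held without the 6 realigned arrays (-0.88, adjusted p = 0.0188) and was lost with the values as deposited (-0.70, adjusted p = 0.0752). Its call in CS+T3 against CS was 1.15 without those arrays (adjusted p = 0.0362) and was lost as deposited (0.83, adjusted p = 0.0784). Its call against T3 held without the arrays (-0.78, adjusted p = 0.0434) and as deposited (-0.72, adjusted p = 0.0390), and was lost after quantile normalization (-0.58, adjusted p = 0.133). Markers of several cell types differed in these comparisons too. In CS against VC, 6 of 12 hepatocyte markers and 2 of 10 leukocyte markers (BTK and CYBB) fell. So did 1 of 4 bile duct markers (TM4SF4, -1.30, adjusted p = 0.00785), while 1 of 5 erythrocyte markers (SLC4A1) rose. Of all features, 3.09% fell and 4.08% passed in either direction. The leukocyte differences were above 0 for 5 markers and below 0 for 5, with a median of -0.01. Of the stellate and matrix markers, 0 of 8 passed. In CS+T3 against CS, 2 hepatocyte markers, BTK and TM4SF4 (1.20, adjusted p = 0.0268) were higher and SLC4A1 was lower. There 2.66% of all features passed and 2.26% were higher. The leukocyte differences were above 0 for 6 markers and below 0 for 4, and 0 of 8 stellate and matrix markers passed. The part of these cell types in the values of KIF1BP was not tested.

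**Figure D2:**
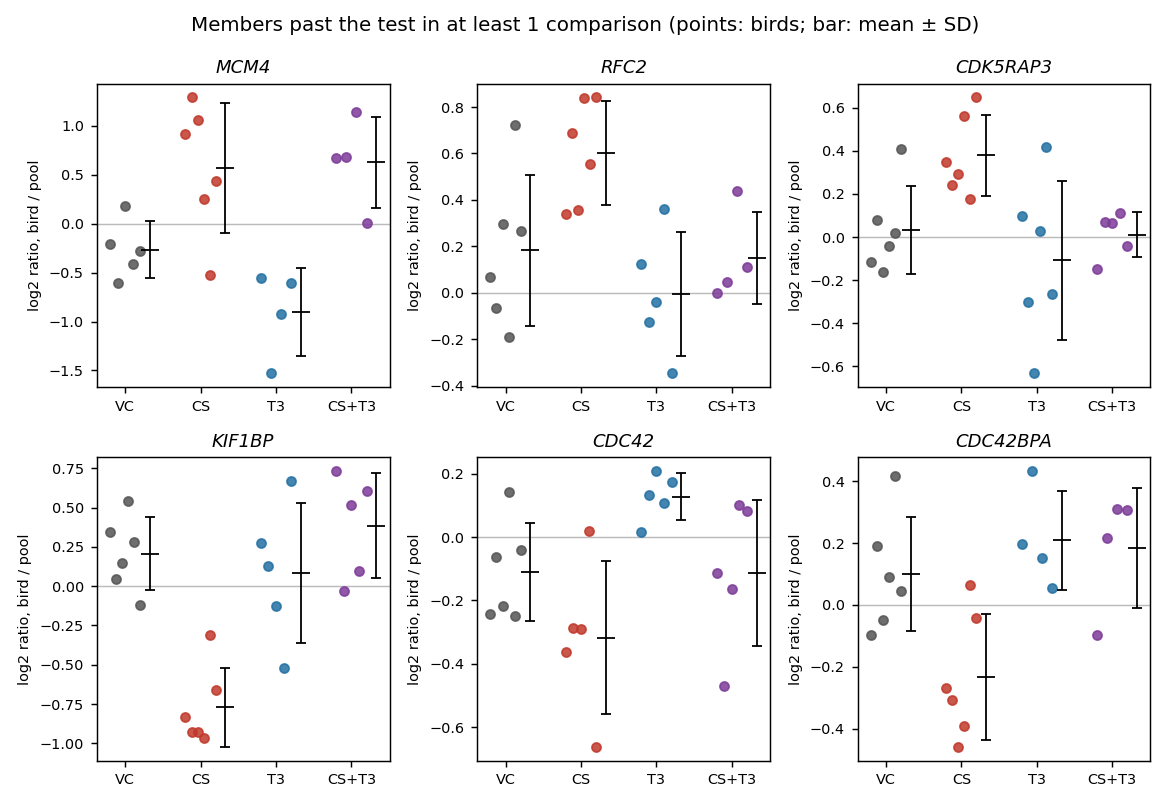
Log2 ratio to the pool of the 6 genes that passed the test in any comparison, 1 point per bird, with a black tick and bar for the group mean ± SD. The 6 CS birds sit between -0.97 and -0.31 for KIF1BP, below all VC and CS+T3 birds, and the 4 T3 birds with a value for MCM4 sit between -1.53 and -0.55.

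CS against T3 was the comparison in which most of these genes passed. There were 6 of 54 (11.1%), while 7.61% of all features passed. MCM4, RFC2 and CDK5RAP3 were higher in CS, where 2.5% of all features were called higher, and KIF1BP, CDC42 and CDC42BPA were lower, where 5.11% were called lower. The median of the 54 differences was 0.10, against 0.05 over all features, and 36 of them were above 0, as were 58.7% over all features. At an unadjusted p under 0.05 there were 17 genes (31.5%), against 24.8% of all features. Of the 17, 14 were higher in CS, as were 1206 of the 2294 features at that threshold. The count fell to 2 without CS replicate 4, where 4.49% of all features passed. It was 3 without T3 replicate 2 (4.89%) or 6 (4.77%), and 4 without the 6 realigned arrays (3.09%). After quantile normalization MCM4 alone passed, while 2.42% of all features did. The other 5 genes had an adjusted p of 0.0711 to 0.133. With only CS and T3 in the fit, CDC42, CDC42BPA and CDK5RAP3 were lost (adjusted p 0.0828 to 0.117), and 2.77% of all features passed.

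MCM4 encodes a subunit of the MCM2-7 helicase, which unwinds DNA at the replication fork. The T3 birds with a value had -0.55, -1.53, -0.92 and -0.60, with none for replicates 1 and 3, and the 6 CS birds ran from -0.53 through a median of 0.68 to 1.29. VC birds had -0.21, -0.60, 0.18, -0.42 and -0.28, and CS+T3 birds had 0.68, 0.69, 1.14 and 0.01. The T3 birds were the lowest group and overlapped neither CS nor CS+T3, although CS replicate 5 missed them by little.

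Between CS and T3, MCM4 differed by 1.47 (SE 0.29, limma adjusted p = 0.00529), and it passed without the 6 realigned arrays (1.37, adjusted p = 0.0267) and as deposited (1.13, adjusted p = 0.0369). No other comparison of MCM4 passed. Its difference from VC was 0.84 in CS (SE 0.28, adjusted p = 0.0973), 0.89 in CS+T3 (SE 0.31, adjusted p = 0.774) and -0.64 in T3 (SE 0.31, adjusted p = 0.962). Between CS+T3 and T3 it was 1.53 (SE 0.32, adjusted p = 0.126). Without CS replicate 5 the difference from VC in CS was 1.06 (adjusted p = 0.0106) and that of CS+T3 from T3 was 1.53 (adjusted p = 0.0302), so both then passed. The gene had a pair of spots, and 1 of them had values on only 2 CS and 2 CS+T3 arrays, with means of -0.19 and -0.01. The value of CS replicate 5 came from that spot alone. The other spot by itself had means of 0.85 in CS, 0.81 in CS+T3, -0.27 in VC and -0.90 in T3, and on it CS exceeded T3 by 1.75.

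RFC2 encodes a subunit of the clamp loader. Its log2 ratios were -0.19, 0.17 and 0.72 at the lowest, median and highest of the VC birds, and 0.34, 0.62 and 0.84 in CS. The T3 birds had 0.12, -0.12, -0.04, 0.36 and -0.35, and the CS+T3 birds had 0.00, 0.05, 0.44 and 0.11. CS was the highest group and overlapped each of the others. The difference between CS and T3 was 0.61 (SE 0.15, limma adjusted p = 0.0193), and that between CS and VC was 0.42 (SE 0.15, adjusted p = 0.114). The call was lost without CS replicate 4 (adjusted p = 0.0502), without T3 replicate 6 (adjusted p = 0.0651) and as deposited (adjusted p = 0.183), and held without the 6 realigned arrays (adjusted p = 0.0499). Without VC replicate 5, RFC2 also passed against VC (0.53, adjusted p = 0.0366).

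The other 3 genes called between CS and T3 carry cell cycle prefixes and have other tasks. CDK5RAP3, a protein of the ligase complex that attaches the ubiquitin-like UFM1, ran from 0.18 through 0.32 to 0.65 in CS and from -0.63 through -0.12 to 0.42 in T3. The groups overlapped, and the difference was 0.49 (SE 0.14, limma adjusted p = 0.0296). Its VC birds ran from -0.16 to 0.41 and its CS+T3 birds from -0.15 to 0.11, the latter below every CS bird. Without the 6 realigned arrays the call was lost (adjusted p = 0.128), as it was as deposited (adjusted p = 0.132) and, at an adjusted p of 0.0722 to 0.0762, without CS replicate 4 or 6 or T3 replicate 2, 3 or 6.

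CDC42, a small GTPase that organises the actin cytoskeleton and cell polarity, had -0.36, -0.29, -0.29, 0.02 and -0.66 in CS and 0.02, 0.13, 0.21, 0.11 and 0.17 in T3. CDC42BPA, a kinase that acts downstream of CDC42, ran from -0.46 through -0.29 to 0.07 in CS and had 0.20, 0.43, 0.15 and 0.05 in T3. For CDC42BPA, and for CDC42 averaged over its spots, 1 CS bird (replicate 5) reached the range of T3. CDC42 differed by -0.45 (SE 0.12, limma adjusted p = 0.0279) and CDC42BPA by -0.44 (SE 0.12, adjusted p = 0.0348). CDC42 had 3 spots, on 2 of which the difference could be taken: it was -0.37 on 1 and -0.70 on the other. On the former, with 3 values in each group, CS (-0.59 to 0.08) overlapped T3 (0.07 to 0.16). On the latter, with 5 in each, CS (-0.93 to -0.08) lay wholly below T3 (0.02 to 0.33). The remaining spot had 3 values in CS (-0.17 to 0.11) and 2 in T3 (0.02 to 0.21), which overlapped. Its values also entered the average. CDC42 was lost as deposited (adjusted p = 0.144) and, at 0.0518 to 0.0821, without CS replicate 1, 4 or 6 or T3 replicate 2, 4 or 6, and held without the 6 realigned arrays (adjusted p = 0.0339). CDC42BPA was lost without those arrays (adjusted p = 0.0822) and, at 0.0552 to 0.0925, without CS replicate 1, 2, 3 or 4 or T3 replicate 2 or 4. Without CS replicate 5, CDC42BPA passed against VC (-0.39, adjusted p = 0.0374) and in CS+T3 against CS (0.48, adjusted p = 0.0258).

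Markers of other cell types differed between the same 2 groups. In CS against T3, 7 of 12 hepatocyte markers and 3 of 10 leukocyte markers (CD74, CYBB and MARCO) were lower. So was 1 of 4 bile duct markers (TM4SF4, -1.43, adjusted p = 0.00307), while 1 hepatocyte and 2 of 5 erythrocyte markers were higher. Of all features, 5.11% were lower and 2.5% higher. The leukocyte differences had a median of -0.07, and 0 of 8 stellate and matrix markers passed. The part of these cell types in the differences of the cell cycle genes was not tested.

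T3 alone was set against the vehicle to see whether the hormone moved these genes. None of the 54 passed in limma, and 0% of all features did. At an unadjusted p under 0.05 there was 1 gene (1.85%), against 4.66% of all features. The median difference was -0.05, against -0.01 over all features, and 22 of the 54 were above 0, as were 48.0% over all features. That median was -0.031 to -0.026 without VC replicate 6 or T3 replicate 4, 5 or 6, and -0.0031 with the values as deposited. The differences ran from -0.64 for MCM4 to 0.28 for MCM5, with CCND1 at -0.28 (95% interval -0.67 to 0.11) and CDK1 at -0.18 (95% interval -0.42 to 0.05).

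Both hormones together were compared with the vehicle and with each hormone alone, using the same birds throughout, so these comparisons are not independent of those above. None of the 54 genes passed in limma between CS+T3 and VC, where 0.054% of all features did, or between CS+T3 and T3, where 0.0432% did. At an unadjusted p under 0.05 there were 2 genes in each (3.7%), against 4.4% and 4.19% of all features. Between CS+T3 and CS, KIF1BP alone passed, where 2.66% of all features did and 2.26% were called higher, and the median difference was -0.13, against -0.04 over all features. There 15 of the 54 differences were above 0, as were 43.2% over all features. The median was -0.076 without CS replicate 2 and also without the 6 realigned arrays. At an unadjusted p under 0.05 there were 13 genes (24.1%, against 21.2% of all features). The count of 1 gene past the adjusted threshold became 2 without CS replicate 5 or CS+T3 replicate 2. There CDC42BPA joined KIF1BP, and 7.46 and 3.01% of all features passed. None passed for the interaction, where 0.0865% of all features did, and 4 genes reached an unadjusted p under 0.05 (7.41%, against 9.82%).

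**Figure D3:**
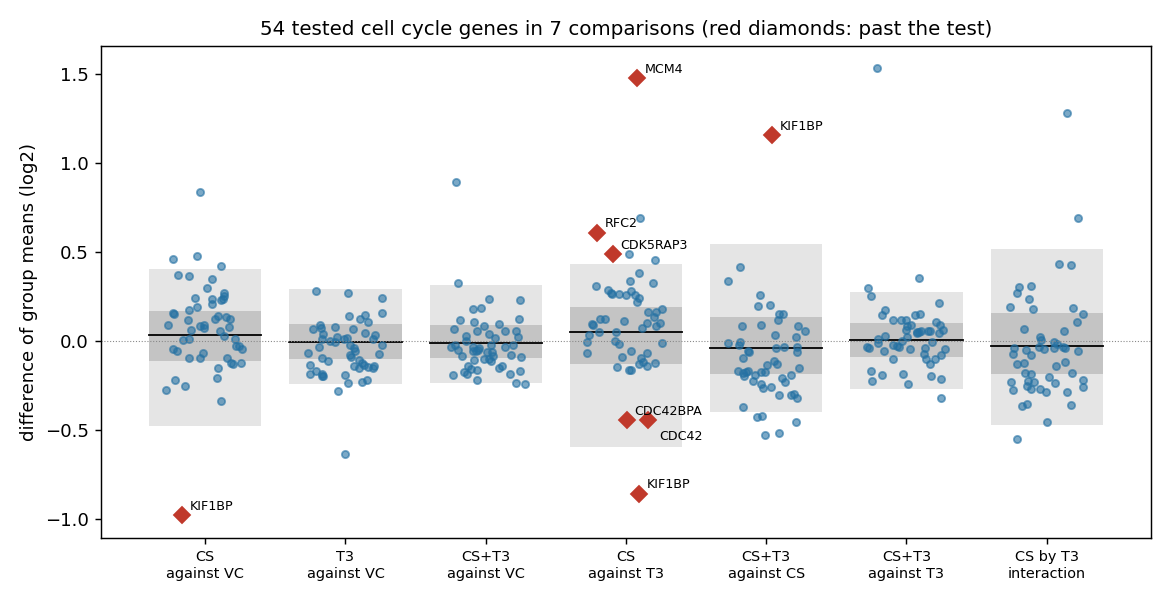
Log2 difference of each of the 54 tested genes in the 7 comparisons (1 point per gene, red diamonds for those that passed the limma test). The light and dark grey bands run from the 5th to the 95th and from the 25th to the 75th percentile of all 9251 features, with a line at their median. Most points lie inside the bands, and MCM4 and KIF1BP lie outside them in several comparisons.

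Of the cyclins and kinases that drive the cycle, CCNB3, CCND1, CCNF and CDK1 were tested, and none passed in any comparison. At most 7.61% of all features passed in any comparison, so the lack of a call among so few genes says little about this class. CCNA2, with a value on 1 VC array only, and CCNB1, with 1 value in CS+T3, were not tested. CDK1, the kinase that starts mitosis, had 0.12, 0.05, 0.15, -0.09 and -0.14 in VC and -0.17, -0.45, -0.14, -0.16 and -0.37 in CS. The T3 birds ran from -0.38 to 0.03 and the CS+T3 birds from -0.63 to 0.09. The groups met at the edge between VC and CS, and the difference was -0.27 (SE 0.12, limma adjusted p = 0.206).

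CCND1, cyclin D1, which links growth signals to entry into the cycle, ran from -0.19 through -0.10 to 1.14 in VC and from -0.04 through 0.43 to 0.50 in CS. The T3 birds had -0.47, -0.16, 0.12, 0.15 and -0.35, and the CS+T3 birds had -0.30, 0.05, -0.09, 0.12 and -0.16. In CS, 5 of the 6 birds lay above every T3 and CS+T3 bird. The difference between CS and T3 was 0.49 (SE 0.19, limma adjusted p = 0.107), and it passed without VC replicate 5 (adjusted p = 0.0206). CCNB3, a cyclin of the B type, had means of 0.08 ± 0.27 in VC, -0.17 ± 0.22 in CS, -0.03 ± 0.23 in T3 (SD, n = 6 each) and 0.03 ± 0.17 in CS+T3 (n = 5).

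Of the 8 tested genes grouped as other cyclins, none passed, where at most 7.61% of all features did in any comparison. These cyclins act mostly in transcription or have less settled roles, and CCNDBP1 among them shares only the prefix. Their median difference between CS and VC was 0.13, in a range of -0.22 to 0.37, and the smallest limma adjusted p was 0.0790. At an unadjusted p under 0.05 there were 2 of the 8 (25%), against 19.6% of all features. CCNH, the cyclin partner of the kinase CDK7, had means of 0.24 ± 0.16 in VC, 0.51 ± 0.16 in CS and 0.38 ± 0.36 in T3 (SD, n = 6 each), and 0.47 ± 0.87 in CS+T3 (n = 5), where 1 bird stood at 2.02. The spots of CCNI, an atypical cyclin, disagreed. On 1 of its 5 spots the mean was 0.10 in VC, -0.51 in CS, 0.19 in T3 and 0.70 in CS+T3, whereas another spot had 0.34, 0.37, 0.04 and 0.29. Averaged over spots, CCNI was 0.34 higher in CS+T3 than in CS (SE 0.13, adjusted p = 0.151). With 1 spot kept per gene, the first of these was used, and that difference was 1.21 and passed (adjusted p = 0.00871). The other spot had as many values, and on it the difference was -0.07.

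Among 7 other genes named after CDKs, CDK5RAP3 was the only one to pass, in CS against T3, where 7.61% of all features did. CDK9, the kinase that releases paused RNA polymerase, had -0.30, -0.08 and -0.30 in T3 and 0.33, 0.05, 0.17 and -0.04 in CS+T3. These groups did not overlap, and the difference was 0.35 (SE 0.13, limma adjusted p = 0.998). CDK13, which phosphorylates RNA polymerase in elongation, differed by -0.22 between CS+T3 and T3 (SE 0.11, adjusted p = 0.998).

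None of the remaining licensing genes that were tested passed, where at most 7.61% of all features did in any comparison. MCM2, MCM5 and MCM6 encode further subunits of the helicase to which MCM4 belongs. MCM6 had means of -0.13 ± 0.18 in VC, -0.12 ± 0.27 in CS and -0.12 ± 0.25 in T3 (SD, n = 6 each), and -0.29 ± 0.21 in CS+T3 (n = 5). The differences between CS and T3, which was 1.47 for MCM4, were 0.13 for MCM2 (95% interval -0.10 to 0.36), -0.14 for MCM5 (-0.60 to 0.32) and 0.00 for MCM6 (-0.27 to 0.27). The interval of MCM4, 0.86 to 2.09, overlapped none of these, and the difference between subunits was not itself tested. MCM2 had values on 3 or 4 birds of each group.

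ORC3 and ORC6 belong to the origin recognition complex. ORC3 had a mean of 0.24 ± 0.23 in VC (SD, n = 6), 0.39 ± 0.37 in CS (n = 6), 0.51 ± 0.35 in T3 (n = 5) and 0.30 ± 0.30 in CS+T3 (n = 5). ORC6 had 0.27 ± 0.23 in VC (n = 5), 0.14 ± 0.17 in CS (n = 6), 0.05 ± 0.29 in T3 (n = 6) and 0.03 ± 0.24 in CS+T3 (n = 4). Every pair of groups overlapped for both genes.

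RFC4, another subunit of the clamp loader, ran from -0.13 through 0.14 to 0.30 in CS and from -0.45 through -0.20 to 0.16 in T3. VC birds ran from -0.26 to 0.17 and CS+T3 birds from -0.24 to 0.02. The groups overlapped, and CS exceeded T3 by 0.31 (SE 0.10, limma adjusted p = 0.0712). The call was gained without CS replicate 5 (adjusted p = 0.0315) or T3 replicate 5 (adjusted p = 0.0204). POLE, the catalytic subunit of the leading-strand polymerase, differed by 0.18 between CS and T3 (SE 0.12, adjusted p = 0.369) and by -0.23 between T3 and VC (SE 0.12, adjusted p = 0.962).

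BUB3, CDC20, CDC25A and PLK2 were the 4 tested genes grouped as mitotic kinases, checkpoint and anaphase. The group name is broad, since CDC25A acts early in the cycle. None of the 4 passed, where at most 7.61% of all features did in any comparison. All 4 differences of CS from VC were above 0, with a median of 0.20, and all 4 of CS+T3 from CS were below 0, with a median of -0.29. Over all features, 56.8% were above 0 in the former comparison and 43.2% in the latter. None of the 4 genes had an unadjusted limma p under 0.05 in either. These comparisons share the CS birds. PLK2, a Polo-like kinase induced by stress and serum, ran from 0.29 through 0.66 to 1.10 in CS and from -0.10 through 0.08 to 0.64 in VC. In T3 it ran from -0.35 through -0.04 to 1.47, and the CS+T3 birds had -0.25, 0.93, -0.02, 0.07 and about 0. CS was high in all 6 birds, while single birds of T3 and CS+T3 were as high. The highest of these were T3 replicate 1 and CS+T3 replicate 2, both on realigned arrays. The array of T3 replicate 1 had 53.5% blank spots and, after realignment, correlated with the mean of the others at r = 0.18. Each of these birds was the highest of its group on both spots of PLK2. T3 replicate 1 had 1.11 and 1.82, and CS+T3 replicate 2 had 1.14 and 0.72. The part of realignment in these values was not tested. PLK2 differed between CS and VC by 0.48 (SE 0.25, limma adjusted p = 0.288), and without T3 replicate 1 it passed between CS and T3 (0.71, adjusted p = 0.0316).

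CDC20, the activator of the anaphase-promoting complex, ran from -0.12 through 0.26 to 0.79 in CS and from -0.16 through 0.11 to 0.39 in VC, a difference of 0.24 (SE 0.18, limma adjusted p = 0.491). T3 birds ran from -0.25 to 0.61 and CS+T3 birds from -0.25 to 0.79, so all groups overlapped. The lowest CS value of CDC20 came from a spot with no other value in any group. On its other spot CS ran from 0.10 to 0.79 and exceeded VC by 0.33. BUB3, a protein of the spindle checkpoint, averaged over its 2 spots, varied widely within groups, from -0.75 to 0.68 in CS. It differed between CS and VC by 0.16 (95% interval -0.28 to 0.60). On 1 spot CS ran from -1.58 to 1.33 and exceeded VC by 0.07. On the other CS ran from -0.09 to 0.59 and exceeded VC by 0.30. CDC25A, the phosphatase that activates CDKs early in the cycle, varied little, with a difference between CS and VC of 0.03 (95% interval -0.17 to 0.23).

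Of the centromere genes, 3 were tested and none passed, where at most 7.61% of all features did in any comparison. CENPQ, a protein of the inner kinetochore, had -0.34, -0.21, -0.19, -0.11 and -0.05 in VC and 0.12, 0.68, -0.01, 0.11 and 0.47 in CS. The T3 birds ran from -1.59 through -0.32 to 0.28, and the CS+T3 birds had -0.09, -0.09, -0.66 and -0.12. Averaged over its 2 spots, CS lay wholly above VC and CS+T3 and overlapped T3. Of these spots, 1 had values on only 3 VC, 2 CS and 1 T3 arrays. On the other spot alone VC ran from -0.34 to 0.34 and CS from 0.11 to 0.68, so CS overlapped VC. There T3 reached 0.86, and CS+T3 stayed below CS. CENPQ differed by 0.46 between CS and VC (SE 0.24, limma adjusted p = 0.299) and by 0.69 between CS and T3 (SE 0.23, adjusted p = 0.0679), and the latter passed without T3 replicate 5 (0.83, adjusted p = 0.0213).

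CENPE, a kinesin that carries chromosomes to the spindle equator, had 0.33, 0.15, 0.40, 0.02 and 0.60 in CS and -0.15, -0.23, -0.01, 0.00 and -0.21 in CS+T3. These groups did not overlap, and the difference was -0.42 (SE 0.17, limma adjusted p = 0.155). VC ran from -0.11 through -0.05 to 0.72, with replicate 5 alone above 0, and T3 had -0.52, 0.10, 0.37 and -0.26. CENPH, of the inner kinetochore, differed between CS and VC by 0.24 (SE 0.14, adjusted p = 0.34).

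**Figure D4:**
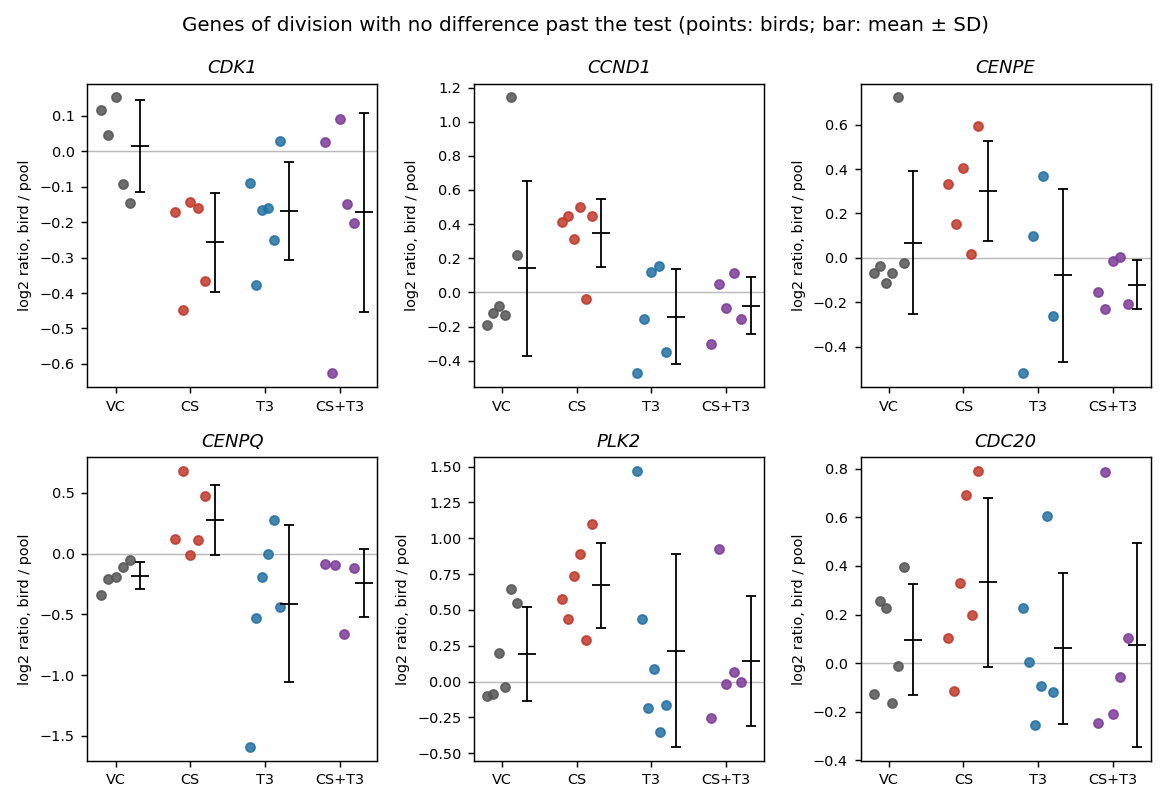
Log2 ratio to the pool of CDK1, CCND1, CENPE, CENPQ, PLK2 and CDC20, 1 point per bird, with a black tick and bar for the group mean ± SD, none of which passed the test. CENPQ, averaged over its spots, lies between -0.01 and 0.68 in CS, above all VC birds. CCND1 and CENPE each have 1 VC bird (replicate 5) far above the rest at 1.14 and 0.72.

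Groups that did not overlap were counted over all comparisons of 2 groups. Between CS and VC there were 2 genes (CENPQ higher and KIF1BP lower), 3.7% of the 54 against 4.44% of all features. For CENPQ this held for the average of its spots and not for the spot with most values alone. Between CS and T3 there were 2 as well, MCM4 and CDKN2A, against 4.8% of all features. CDKN2A, known in mammals as a locus of cell cycle inhibitors, was named here after its values were seen. It differed by 0.28 (SE 0.09, limma adjusted p = 0.0621). Between CS+T3 and CS there were 4 (KIF1BP higher, and CDK5RAP3, CENPE and CENPQ lower), 7.41% against 5.21%, and between CS+T3 and T3 there were 2 (CDK9 and MCM4, both higher), 3.7% against 1.38%. Between T3 and VC there were 0, against 1.05% of all features, and between CS+T3 and VC 0, against 1.98%.

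Of the 10 tested genes grouped with the kinesins, KIF1BP was the only one to pass. It did so in CS against VC, CS against T3 and CS+T3 against CS, where 4.08, 7.61 and 2.66% of all features passed. KIF2C, a kinesin that takes microtubules apart at the centromere, had a mean of 0.57 ± 0.28 in CS (SD, n = 5), 0.20 ± 0.26 in VC (n = 6), 0.32 ± 0.28 in T3 (n = 6) and 0.43 ± 0.15 in CS+T3 (n = 4). It differed between CS and VC by 0.36 (SE 0.15, limma adjusted p = 0.179). KIF4B, a chromosome-bound kinesin, differed between CS+T3 and VC by 0.32 (SE 0.19, adjusted p = 1), and 1 CS+T3 bird stood at 0.85. KIFC1, a minus-end motor of the spindle, differed between CS and T3 by -0.16 (SE 0.12, adjusted p = 0.406).

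Other genes of the cycle that lack these prefixes were looked up from a list of 97, of which 25 were tested. In CS against T3, 2 of the 25 passed, both lower in CS, where 5.11% of all features were called lower and 7.61% were called in either direction. CDT1, which loads the MCM helicase at origins, differed by -0.70 (SE 0.20, limma adjusted p = 0.0309). GINS2, a subunit of the GINS complex that joins the helicase, differed by -0.85 (SE 0.18, adjusted p = 0.00534). Neither call was followed through the alternative fits, so how far they depend on single birds or processing was not tested. The proliferation markers TOP2A and PCNA differed by 0.12 (SE 0.08, adjusted p = 0.378) and -0.14 (SE 0.15, adjusted p = 0.574), and RRM1, a subunit of ribonucleotide reductase, by 0.48 (SE 0.15, adjusted p = 0.064). None of the 25 passed in the other comparisons. Their median difference was 0.07 between CS and T3 and 0.02 between CS and VC.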

How the data were processed

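Liver RNA of 23 birds was measured on 2-colour spotted arrays of 19200 spots, 1 array per bird against a common reference pool. The values deposited by the authors were read as log2 ratios. Log base, numerator, normalization, background treatment and any filter on spots are not given in the sources used here, and base 2 was taken from the range of the values (-3.86 to 4.05). The labels give no slide, date or dye swap, and the number of arrays limits the precision. Symbols came from the platform annotation.

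A search over lags of up to 40 spots compared each array with the mean of the others and moved the values of 6 arrays; 17 arrays correlated in place (r of 0.266 to 0.550). An array was moved where a part of at least 1000 spots had r of at least 0.2 at its lag. That limit was lowered from 0.25 after CS+T3 replicate 1, at 7 spots, had missed it. Parts with r under 0.1 were left missing. The search and the fit were tested on simulated data. For CS against VC, the fit recovered 44% of simulated log2 changes of 0.5 and 87% of those of 1. A gene that did not pass can therefore still have changed.

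Spots of a gene were averaged. The fit used limma 3.58.1 (R 4.3.3) over all arrays, for features with 3 or more values in each group, with Benjamini-Hochberg adjustment over 9251 features and a threshold of 0.05. Genes named were those called in any comparison, the 4 with the largest difference each way per comparison, and measured core cyclins, CDKs and replication genes. The genes, lists and naming rule were chosen with earlier results of these data known. Alternatives covered the misplaced arrays, array weights, normalization, filters, spots, the samples fitted, the variance prior, a replicate block and each bird left out.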

Additional observations from a re-analysis of the deposited data

Results flagged for a closer look

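Among 116 sets of a named gene and a group of at least 4 birds, 11 held a bird far from the others by Dixon's test. Chance gives about 1 in 20 for independent sets chosen without regard to their values. Many of these genes were named for large differences in the same values, which a far bird can enlarge, and the sets share birds. The count of 11 can therefore not be set against that rate. VC replicate 5 was high for 4 genes: CCND1 stood at 1.14 against -0.19 to 0.22 in the other birds, CENPE at 0.72 against -0.11 to -0.02, CDK13 at 0.25 against -0.02 to 0.01, and KIF4B at 0.13 against -0.30 to -0.18. CS+T3 replicate 2 was high for 3 genes: CCNH stood at 2.02 against 0.003 to 0.28, PLK2 at 0.93 against -0.25 to 0.07, and KIF4B at 0.85 against -0.12 to 0.01. CS+T3 replicate 4 was low for CENPH, at -0.52 against -0.11 to -0.04, and for CENPQ, at -0.66 against -0.12 to -0.09. In the CS group, CCND1 was low in replicate 5, at -0.039 against 0.31 to 0.50. CDC25A, averaged over spots, was high in replicate 4, at 0.21 against -0.16 to -0.02. On its only spot with values for all 6 CS birds, CDC25A ran from -0.22 to 0.03 in CS. CS+T3 replicate 2 was 1 of the 6 arrays with realigned spots. The arrays of the other 4 birds were used as deposited.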

How the results depend on the processing

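None of the 8 called differences of the cell cycle genes chosen by prefix turned sign in any of the 34 alternatives. MCM4 between CS and T3 passed in all 34. The count of genes called between CS and VC, 1, was 0 with the values as deposited, where 0.762% of all features passed. It was 6 with array weights (8.67% of all features) and 2 with the spot with most values per gene (4.26%). With single birds left out it was 1 to 3 (2.43 to 6.67%). Between CS and T3, 6 became 3 as deposited (2.47% of all features) and 1 after quantile normalization (2.42%). It became 3 with only the compared groups in the fit (2.77%), and 2 to 9 with single birds left out (4.49 to 12%). Between CS+T3 and CS, 1 became 0 as deposited (0.0529% of all features) and 3 with array weights (5.29%). It became 2 with the spot with most values (3.03%) and 1 to 2 with birds left out (1.13 to 7.46%). The median difference there, -0.13, was -0.076 without all 6 realigned arrays and -0.163 to -0.0764 with birds left out. Between CS+T3 and T3, 0 became 1 (MCM4) with the spot with most values, where 0.12% of all features passed. With birds left out it was 0 to 1 (0.0433 to 0.0917% of all features). For the interaction, 0 became 1 (KIF1BP) with array weights (0.4% of all features) or with at least 4 values in every group (0.122%). With birds left out it was 0 to 1 (0 to 0.397%). No gene was called for T3 or CS+T3 against VC in any alternative, where 0% and at most 0.335% of all features were. The causes were not tested.

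The labels do not say whether replicate numbers pair the birds, and no pairing was seen. Deviations of same-numbered birds of different groups correlated at a median r of -0.03 over 33 pairs (-0.41 to 0.33). Those of other birds correlated at 0.01 over 165 (-0.32 to 0.39). With the number as a replicate block, 1, 4 and 1 genes were called for CS against VC, CS against T3 and CS+T3 against CS. Of all features, 2.58, 4.41 and 0.832% were. In the other comparisons 0 genes were called, with at most 0.0432% of all features. Between CS and T3 the calls lost were those of RFC2 (0.64, adjusted p = 0.0835) and CDC42BPA (-0.39, adjusted p = 0.161). With missing values the standard errors of that fit are approximate.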
